A study of Mus musculus with 15 samples.

Results

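The RNA of 6 mucin genes and 2 transcription factor genes of mucous cells was followed in whole mouse stomachs from early organ formation to adulthood. The mucins were Muc5ac, Muc5b, Muc6, Muc1, Muc4 and Muc13, and the transcription factors were Foxq1 and Spdef. The genes were chosen by name, with earlier results of these data known, and all 8 symbols were found among the 44788 gene symbols of the data. All 8 also reached the level of at least 1 FPKM at some timepoint that 16902 symbols reached and that was required for testing. FPKM is the number of sequenced fragments per length of transcript and per total of mapped fragments, so that levels of different genes are compared per length.

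Stomachs of C57BL/6 mice were collected at 15 timepoints, daily from embryonic day E12.5 to E18.5, on postnatal days D1, D3 and D5, and in postnatal weeks W1, W2, W3, W6 and W8, with 1 RNA-Seq transcriptome at each. No treatment or mutant was part of the series, and the groups compared were the 3 RNA phases of the study: Ph1 with 6 timepoints from E12.5 to E17.5, Ph2 with 6 timepoints from E18.5 to W2 and Ph3 with 3 timepoints from W3 to W8. No timepoint was replicated, and the timepoints of a phase stood in for replicates, so that their spread also holds what changed with age. The study drew the phases from the same transcriptomes, and p-values between phases therefore describe a separation already used to define them. Stomachs older than 2 weeks came from males and younger ones from animals of either sex, so that sex and Ph3 cannot be told apart, and the methods name liver as the source of the RNA where the labels name stomach. Before E18.5, a replicate held the stomachs of several embryos, and from then on that of a single animal, without a statement on whether this also held for the RNA. The whole organ was taken, and more cells of a type and more RNA per cell cannot be told apart.

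Mucins are large proteins whose repeated serine and threonine stretches carry dense O-linked sugar chains. The gel-forming mucins are secreted, joined end to end through disulfide bonds, and make the mucus layer that protects the stomach wall from acid. In the adult stomach, Muc5ac is the mucin of the surface and pit mucous cells, and Muc6 is that of the mucous neck and gland cells, whereas Muc5b is best known as a gel-forming mucin of the airways and salivary glands. The membrane-bound mucins Muc1, Muc4 and Muc13 coat the apical side of epithelial cells. Foxq1, a forkhead factor, is needed for Muc5ac expression in surface mucous cells, and Spdef, an ETS factor, directs the maturation of mucus-secreting cells in several organs.

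The gel-forming mucin genes were neighbours. In GRCm38, Muc6 lay on chromosome 7 from 141634049 to 141655308 on the reverse strand, Muc5ac from 141788958 to 141819226 and Muc5b from 141838946 to 141873085, both on the forward strand. The 3 genes spanned 239 kb, and 19.7 kb separated Muc5ac from Muc5b. Muc2, the gel-forming mucin of the intestine, lies between Muc6 and Muc5ac and was at most 0.709 FPKM, at D5. Muc1 lay on chromosome 3 from 89229056 to 89233381, Muc4 on chromosome 16 from 32735886 to 32782391 and Muc13 on the same chromosome from 33794037 to 33819929, all on the forward strand. Foxq1 lay on chromosome 13 from 31558170 to 31560976 on the forward strand, and Spdef on chromosome 17 from 27714446 to 27729613 on the reverse strand. Spdef had a further entry on an unplaced scaffold, whose FPKM was 98.5% to 100% of the chromosome entry, and the levels given for Spdef are the sum of both entries, which may count the same fragments in each.

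RefSeq sequence of the 250 bases before the annotated start (GRCm38.p6) was at hand for 5 of the 8 genes, Muc6, Muc1, Muc4, Muc13 and Spdef. Of these genes, 3 are shown because they differed in course: Muc6, which was higher in each later phase, Muc1, which was higher in Ph2 than in Ph1 and did not pass the test after that, and Muc13, which was high for a short time after birth. The sequences were searched on both strands for 4 short motifs, TGTTTA for forkhead factors, CCGGAT for Spdef, AGATAA for GATA factors and TATAAA for a TATA box, and capitals mark a match.
Muc6, chr7:141655394-141655643, reverse strand: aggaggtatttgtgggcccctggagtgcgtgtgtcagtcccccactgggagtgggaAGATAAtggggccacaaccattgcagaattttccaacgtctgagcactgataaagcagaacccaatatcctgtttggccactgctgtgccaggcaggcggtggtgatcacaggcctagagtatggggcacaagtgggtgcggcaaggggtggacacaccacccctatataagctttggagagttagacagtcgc
Muc1, chr3:89228806-89229055, forward strand: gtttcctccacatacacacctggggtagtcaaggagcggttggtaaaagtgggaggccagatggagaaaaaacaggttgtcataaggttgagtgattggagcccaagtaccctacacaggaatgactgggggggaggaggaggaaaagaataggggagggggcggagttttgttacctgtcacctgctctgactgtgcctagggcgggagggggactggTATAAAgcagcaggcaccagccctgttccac
Muc13, chr16:33793787-33794036, forward strand: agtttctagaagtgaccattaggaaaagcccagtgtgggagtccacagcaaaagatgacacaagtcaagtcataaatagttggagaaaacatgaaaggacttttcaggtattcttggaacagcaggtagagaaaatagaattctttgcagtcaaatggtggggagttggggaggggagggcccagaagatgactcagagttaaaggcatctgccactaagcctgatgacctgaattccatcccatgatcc
The Muc1 sequence held TATAAA 31 bases before the start, and that of Muc4, not shown, held it 36 bases before. The Muc6 sequence held AGATAA 194 bases before the start. Exact letters alone were searched, so that the similar letters tatataag near the end of the Muc6 sequence were not marked as a TATA box. None of the 4 motifs was in the windows of Muc13 and Spdef, and TGTTTA and CCGGAT were in none of the windows of the 5 genes. Among 32851 windows of the same length, 12.4% held TATAAA, 9.99% AGATAA, 12% TGTTTA and 4.94% CCGGAT. These are matches of letters and not measured binding sites. The start that RefSeq gives for Muc6 lies outside the interval of the gene in the deposited data.

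The leading gel-forming mucin RNA changed from Muc5ac in the early embryo to Muc5b around birth and back to Muc5ac from W2 on, while Muc6 was higher in each later phase. Muc5ac was 1.42 FPKM at E12.5, 2.23 at E13.5, 3.15 at E14.5, 3.54 at E15.5, 5.92 at E16.5 and 6.38 at E17.5. In Ph2, it was 3.95 at E18.5, 4.63 at D1, 3.85 at D3, 3.39 at D5, 4.40 at W1 and 94.3 at W2. Muc5ac then was 494 FPKM at W3, 592 at W6 and 671 at W8. The other Ph2 timepoints thus lay within the Ph1 range apart from W2, which lay above it, whereas all Ph3 timepoints lay above all of Ph2.

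The value of Muc5ac at W2 was 21.4-fold that at W1, and the value at W3 was 5.24-fold that at W2. The deposited confidence bounds were 4.10 to 4.70 FPKM at W1, 91.8 to 96.7 at W2 and 483 to 505 at W3, and did not overlap. With limma, Muc5ac rose from Ph2 to Ph3 by a log2 fold change of 6.15 (SE 0.77, adjusted p = 8.52e-05), and the exact permutation p of 0.0119 was the smallest that 6 against 3 timepoints allow. From Ph1 to Ph2, the log2 fold change was 0.89 (SE 0.63, adjusted p = 0.225 with limma), and it was 0.18 without W2.

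**Figure D1:**
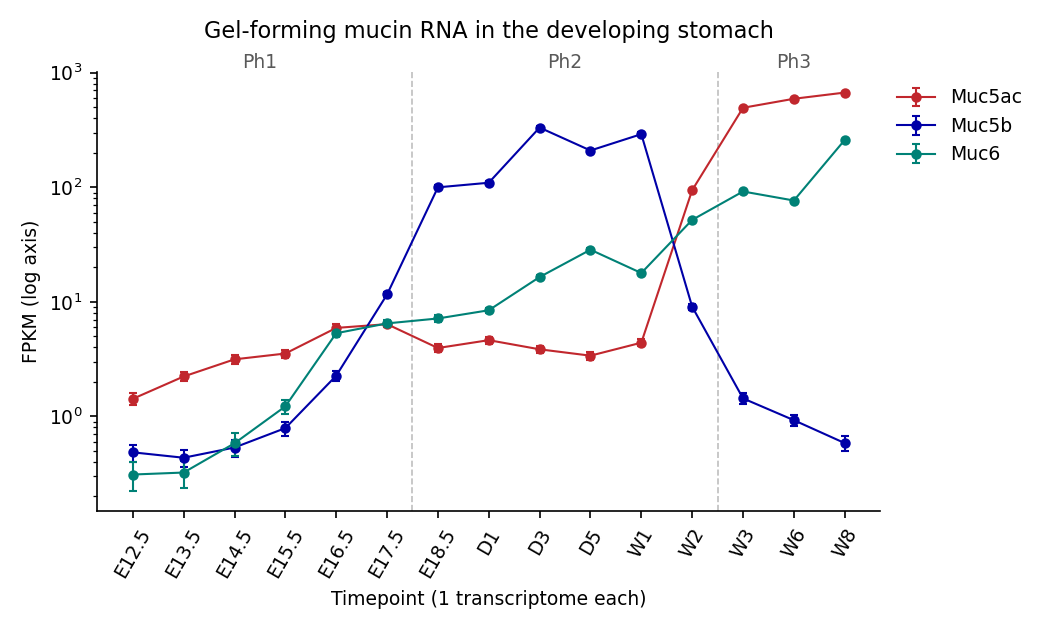
FPKM of Muc5ac, Muc5b and Muc6 at the 15 timepoints on a log axis, 1 transcriptome each, with the deposited confidence bounds as error bars and dashed lines between the phases. Muc5b exceeds Muc5ac from E17.5 to W1, and at W2 Muc5ac is at 94.3 FPKM and Muc5b at 9.06 FPKM.

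Muc5b was high at the timepoints around birth. It was 0.485 FPKM at E12.5, 0.435 at E13.5, 0.535 at E14.5, 0.790 at E15.5, 2.26 at E16.5 and 11.6 at E17.5. In Ph2, it was 99.8 at E18.5, 110 at D1, 332 at D3, 209 at D5, 291 at W1 and 9.06 at W2, and in Ph3 it was 1.44 at W3, 0.926 at W6 and 0.584 at W8. Muc5b was thus high at 5 timepoints, from E18.5 to W1, and its level at W8 was close to those of E12.5 to E14.5.

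The value of Muc5b at E18.5 was 8.62-fold that at E17.5, and the value at W1 was 32.1-fold that at W2. Between W2 and W3, a further 6.31-fold difference lay in the same direction. In limma, Muc5b rose from Ph1 to Ph2 by a log2 fold change of 5.52 (SE 0.76, adjusted p = 8.75e-05) and fell from Ph2 to Ph3 by 5.88 (SE 0.92, adjusted p = 0.000254). The exact permutation p was 0.00433 for the first step, where W2 overlapped with E17.5, and 0.0119 for the second, where all Ph3 values lay below all Ph2 values. W1 and W2, between which Muc5ac and Muc5b changed places, had similar relative sequencing depths of 1.02 and 1.01, with that of E12.5 set to 1.

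Muc6 was higher in each later phase and had no peak of the kind Muc5b had. It was 0.311 FPKM at E12.5, 0.323 at E13.5, 0.582 at E14.5, 1.22 at E15.5, 5.32 at E16.5 and 6.48 at E17.5. In Ph2, it was 7.15 at E18.5, 8.44 at D1, 16.46 at D3, 28.5 at D5, 17.8 at W1 and 51.9 at W2, and in Ph3 it was 91.9 at W3, 76.6 at W6 and 259 at W8. The 3 phases did not overlap. Muc6 rose from Ph1 to Ph2 by a log2 fold change of 2.84 (SE 0.55, adjusted p = 0.000619 with limma, exact permutation p = 0.00216) and from Ph2 to Ph3 by 2.74 (SE 0.68, adjusted p = 0.00359, exact permutation p = 0.0119). The second call rested on W8, without which the log2 fold change was 2.20 and the limma adjusted p 0.0277. It was also lost with a pseudocount of 0.1 in place of 1 (adjusted p = 0.0174) and with E18.5 counted in Ph1 (adjusted p = 0.0108). W8 also held little RNA of the forestomach. The summed FPKM of its squamous markers Krt5, Krt14, Krt13 and Trp63 was 7.65 at W8, against 860 at W3. Whether this bears on the level of Muc6 at W8 was not tested.

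The makeup of the gel-forming mucin RNA was compared as the percent of the summed FPKM of Muc5ac, Muc5b and Muc6, which does not depend on how the transcriptomes are scaled to each other. The sum was 2.22 FPKM at E12.5, 24.5 at E17.5, 111 at E18.5, 352 at D3, 155 at W2 and 930 at W8. Muc5ac held 64.1% of it at E12.5, 74.6% at E13.5, 73.8% at E14.5 and 63.7% at E15.5, then 43.8% at E16.5 and 26.1% at E17.5. From E18.5 to W1, Muc5ac held between 1.09% and 3.77% and Muc5b between 86.8% and 94.2%. At W2, Muc5ac held 60.7%, Muc6 33.4% and Muc5b 5.84%. In Ph3, Muc5ac held 84.1%, 88.4% and 72.1% at W3, W6 and W8, and Muc5b was at most 0.244%.

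Muc5b FPKM was 66.1-fold that of Muc5ac at W1, whereas Muc5ac FPKM was 10.4-fold that of Muc5b at W2 and 1148-fold at W8. If the deposited bounds held counting error alone, they would imply 849 fragments of Muc5ac and 2434 of Muc5b at W1. At W2, they would imply 5981 and 1278. A fragment would then stand for 0.00518 FPKM of Muc5ac and 0.119 of Muc5b at W1, and 0.0158 and 0.00709 at W2. For Muc6 it would stand for 0.00539 to 0.00880 throughout. Why the bounds of Muc5ac and Muc5b were wide where they were high was not tested. The mean share of Muc5ac was 57.7% ± 19.0 (SD, n = 6) in Ph1, 12.0% ± 23.9 (n = 6) in Ph2 and 81.5% ± 8.45 (n = 3) in Ph3, and it differed at both steps by the exact two-sided permutation test (p = 0.00649 and 0.0119). The mean share of Muc5b was 21.2% ± 13.2 in Ph1, 76.5% ± 34.7 in Ph2 and 0.149% ± 0.0912 in Ph3, with exact permutation p = 0.0152 and 0.0119. The share of Muc6 did not pass the test at either step, with means of 21.1%, 11.5% and 18.3% (exact permutation p = 0.156 and 0.393). These were 6 tests of shares that depend on each other, and without W2 the Muc6 share differed at both steps, by -14.0 and 11.2 percentage points. The differences of Muc5ac and Muc5b no longer passed 0.05 after adjustment over the 6 tests with E18.5 counted in Ph1, and those from Ph2 to Ph3 no longer passed it without W3, W6 or W8, which leaves 6 against 2 timepoints.

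**Figure D2:**
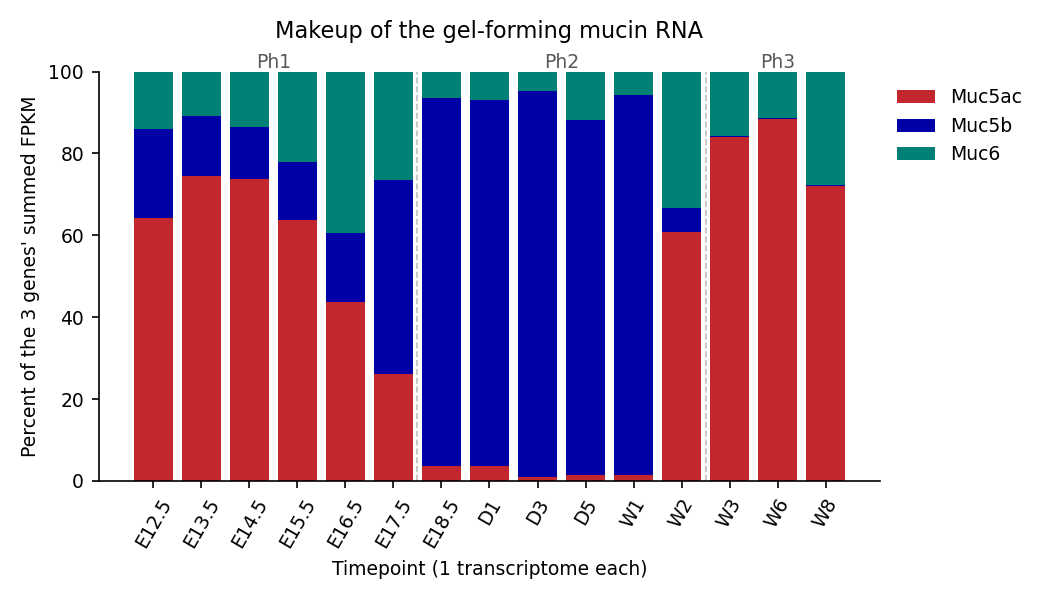
Percent of the summed FPKM of Muc5ac, Muc5b and Muc6 held by each at the 15 timepoints, as stacked bars from 0 to 100, with dashed lines between the phases. Muc5b holds 86.8% to 94.2% from E18.5 to W1, and Muc5ac holds 60.7% to 88.4% from W2 to W8.

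Muc1 was the most abundant mucin RNA of the embryonic stomach, and it lay between 136 and 250 FPKM after birth. It was 7.52 FPKM at E12.5, 13.4 at E13.5, 18.4 at E14.5, 34.0 at E15.5, 81.3 at E16.5 and 103 at E17.5. In Ph2, it was 150 at E18.5, 136 at D1, 180 at D3, 139 at D5, 218 at W1 and 250 at W2, and in Ph3 it was 249, 234 and 210 at W3, W6 and W8. All Ph2 values lay above all Ph1 values, and the Ph3 values lay within the Ph2 range. Muc1 rose from Ph1 to Ph2 by a log2 fold change of 2.55 (SE 0.50, adjusted p = 0.000665 with limma, exact permutation p = 0.00216). Between Ph2 and Ph3, the log2 fold change was 0.40 (SE 0.61, adjusted p = 0.588 with limma, exact permutation p = 0.143).

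Muc4, the largest of the 3 membrane-bound mucin genes, was low throughout. It ranged from 1.24 FPKM at E12.5 to 2.72 at E16.5 in Ph1 and from 0.983 at D1 to 2.11 at E18.5 in Ph2. In Ph3, it was 2.79 at W3, 1.88 at W6 and 0.702 at W8, and the values at W3 and W8 were its highest and its lowest of the series. The phases overlapped, and Muc4 was the member that did not pass limma's F test across the 3 phases (adjusted p = 0.475). At W8, where Muc4 was lowest, the summed FPKM of 4 squamous markers of the forestomach, Krt5, Krt14, Krt13 and Trp63, was 7.65, against 860 at W3. The sum was also low at E12.5, with 19.8 and Muc4 at 1.24 FPKM, and it was 5630 at D1, where Muc4 at 0.983 FPKM was the second lowest of the series. The part of the forestomach in the level of Muc4 was not tested.

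Muc13 was below 0.5 FPKM before E18.5 and at most 1.28 FPKM after W1. In Ph1, it lay between 0.105 FPKM at E12.5 and 0.485 at E15.5, and the deposited lower bound was 0 at E14.5. In Ph2, it was 1.15 at E18.5, 2.24 at D1, 18.4 at D3, 9.16 at D5, 9.38 at W1 and 0.399 at W2. In Ph3, it was 1.28 at W3, 0.775 at W6 and 0.174 at W8. The level at D3 was 8.22-fold that at D1, the bounds at D5 and W1 overlapped, and the level at W1 was 23.5-fold that at W2. Both Muc13 and Muc5b were thus highest at D3 and far lower at W2 than at W1.

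In limma, Muc13 rose from Ph1 to Ph2 by a log2 fold change of 2.09 (SE 0.52, adjusted p = 0.00317, exact permutation p = 0.00433). This call was lost with E17.5 counted in Ph2 (adjusted p = 0.0140). From Ph2 to Ph3, the log2 fold change was -1.63 (SE 0.64, adjusted p = 0.0399 with limma, exact permutation p = 0.119), and without W2, whose value lay within the Ph3 range, it was -2.01 (adjusted p = 0.00694). The summed FPKM of 5 intestinal markers was highest within Ph2 at D3, with 33.6, and was up to 65.0 in Ph3. At D3, Vil1 was 22.0 FPKM, its highest in Ph2, Fabp2 9.34, against 15.3 at D5, and Lct 2.20, against 3.47 at D1 and 0.487 at W1, whereas the intestinal factors Cdx1 and Cdx2 were 0.0942 and 0.0248. The list of 4 pancreatic markers held Prss2, a trypsinogen, with 14.4 FPKM at D3 and less than 1 FPKM at the other 14 timepoints. Its other members at D3 were Cela1 with 12.0, against 12.6 at D5 and 17.8 at W1, Cel with 8.57, against 3.58 at D5 and 8.22 at W2, and Cpa1 with 3.41, against 6.40 at E15.5. Whether tissue of neighbouring organs bears on the D3 values was not tested.

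Of the summed FPKM of the 3 membrane-bound mucins, Muc1 held between 84.8% at E12.5 and 99.6% at W8. The share of Muc4 was 14.0% at E12.5 and 1.93% at E17.5, and between 0.333% and 1.37% later. Its mean of 7.27% ± 4.44 (SD, n = 6) in Ph1 lay above that of 0.816% ± 0.307 (n = 6) in Ph2, with no overlap (exact permutation p = 0.00216), a difference that did not pass 0.05 after adjustment over 6 tests with E18.5 counted in Ph1 or without any of E18.5, D1, D3, D5 or W1. Muc13 held at most 9.18%, at D3.

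Foxq1 and Spdef followed Muc1 more closely than they followed any gel-forming mucin. Foxq1 was 12.0 FPKM at E12.5, 27.8 at E13.5, 39.2 at E14.5, 55.4 at E15.5, 104 at E16.5 and 105 at E17.5. In Ph2, it was 102 at E18.5, 126 at D1, 146 at D3, 112 at D5, 154 at W1 and 189 at W2, and in Ph3 it was 140 at W3, 100.1 at W6 and 113 at W8. Foxq1 had thus passed 50% of its highest level at E16.5, when Muc5ac stood at 5.92 FPKM, and Muc5ac passed 50% of its own highest level at W3. Foxq1 rose from Ph1 to Ph2 by a log2 fold change of 1.57 (SE 0.41, adjusted p = 0.00450 with limma, exact permutation p = 0.00649), and E18.5 overlapped with E16.5 and E17.5. Its log2 fold change between Ph2 and Ph3 was -0.21 (SE 0.51, adjusted p = 0.737), and with the transcriptomes scaled to each other by median ratios it was 0.39.

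Spdef was 6.08 FPKM at E12.5, 8.76 at E13.5, 12.3 at E14.5, 13.6 at E15.5, 26.7 at E16.5 and 28.0 at E17.5. In Ph2, it ranged from 24.5 at E18.5 to 44.2 at W2, and in Ph3 it was 41.1, 27.5 and 36.7 at W3, W6 and W8. Spdef rose from Ph1 to Ph2 by a log2 fold change of 1.15 (SE 0.30, adjusted p = 0.00430 with limma, exact permutation p = 0.0130), and its log2 fold change from Ph2 to Ph3 was 0.11 (SE 0.37, adjusted p = 0.818). The calls of Foxq1 and Spdef lay close to the threshold of 0.01, and each was lost without E13.5, E14.5, W1 or W2, where the adjusted p lay between 0.0105 and 0.0126, and without the filter on low values. That of Foxq1 was also lost with E18.5 counted in Ph1 (adjusted p = 0.0116).

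The ratio of Foxq1 to Spdef FPKM lay between 1.97 at E12.5 and 4.80 at D3. RNA of both factors was thus measured at every timepoint, also from E18.5 to W1, when Muc5ac was low and Muc5b high.

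**Figure D3:**
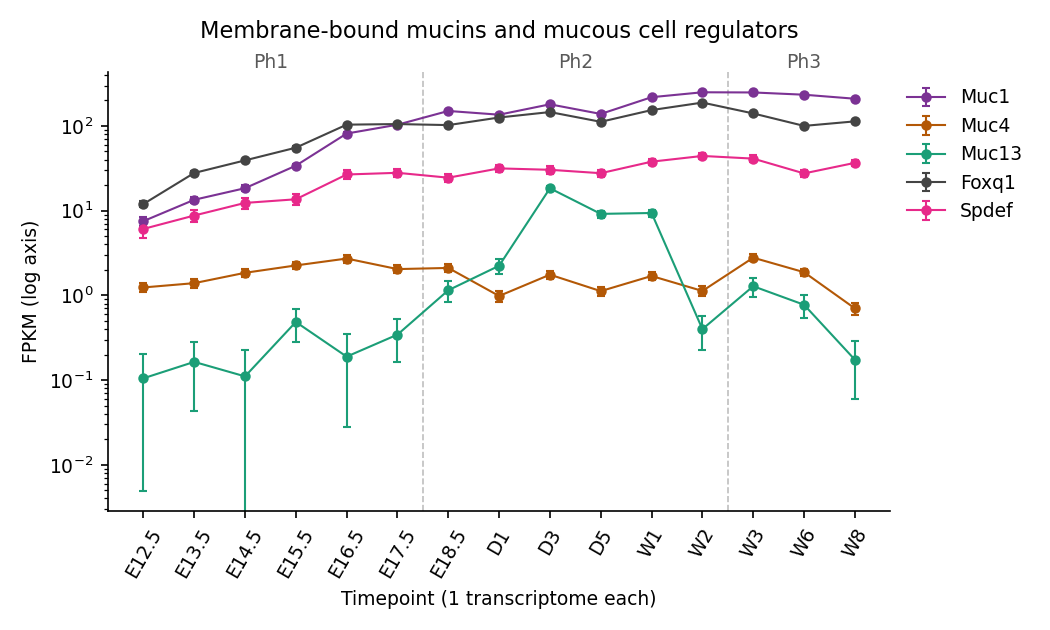
FPKM of Muc1, Muc4, Muc13, Foxq1 and Spdef at the 15 timepoints on a log axis, 1 transcriptome each, with the deposited confidence bounds as error bars and dashed lines between the phases. Muc13 peaks at 18.4 FPKM at D3, Muc4 stays between 0.702 and 2.79 FPKM, and the lower bound of Muc13 at E14.5 is 0 and runs off the axis.

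Of the 8 genes, 6 rose from Ph1 to Ph2 (Muc5b, Muc6, Muc1, Muc13, Foxq1 and Spdef) and none fell, where 13.2% of all genes tested were called higher and 35.1% lower. From Ph2 to Ph3, Muc5ac and Muc6 rose and Muc5b fell, where 3.41% of all genes were called higher and 37.4% lower. Across the 3 phases, 7 of the 8 differed by limma's F test, as did 70.8% of all genes, so that this count lies near the background. Muc6 and Muc1 were higher in all Ph2 than in all Ph1 timepoints, which 7.79% of all genes were. Muc5ac and Muc6 were higher in all Ph3 than in all Ph2 timepoints, which 4.63% of all genes were, and Muc5b was lower, which 44.7% were. The median log2 fold change of the 8 genes was 1.83 and 0.11, against -0.22 and -0.43 for all genes. With median-ratio scaling, 20.4% of all genes were called higher and 18.4% lower at the first step, and 14.9% and 10.4% at the second.

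**Figure D4:**
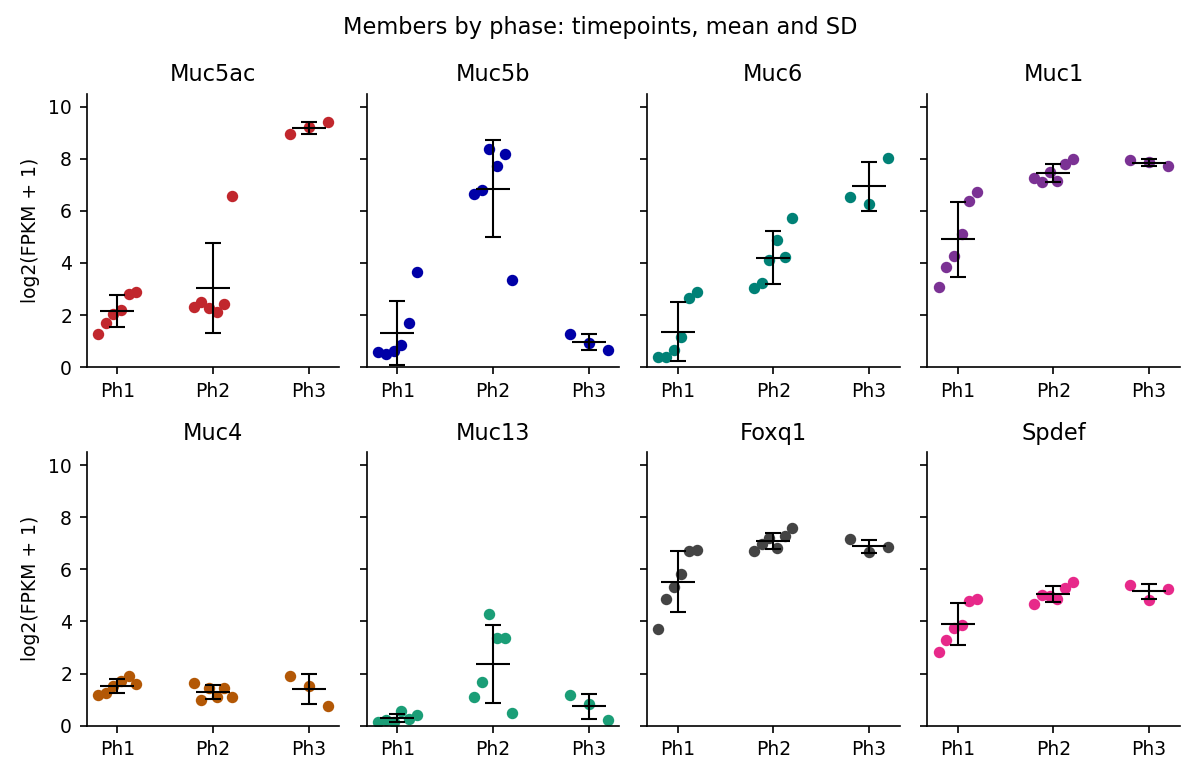
log2(FPKM + 1) of the 8 genes in Ph1 (6 timepoints), Ph2 (6) and Ph3 (3), with points for timepoints and bars for the mean and SD. Muc6 is higher in each later phase without overlap, Muc5b is high in Ph2 apart from W2, and Muc4 overlaps between all phases.

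The rank of each gene among the 16902 genes tested does not depend on the scaling of a transcriptome. Muc5ac stood at or above 39.8% of the genes at W1 and 94.2% at W2. Muc5b stood at or above 98.4% at D3 and 98.1% at W1, and 55.5% at W2 and 25.9% at W3. Muc13 stood at or above 72.0% at D3 and 7.50% at W2. Muc1 went from 47.3% at E12.5 to 97.8% at W2, and Foxq1 from 58.1% to 97.2%.

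The epithelium takes up a changing part of the whole organ, and each gene was therefore also set against the mean log2(FPKM + 1) of 4 genes of all epithelial cells, Epcam, Cdh1, Krt8 and Krt18. In Ph1, Muc5ac stayed between 5.05 and 5.31 below this mean on the log2 scale, an SD of 0.0878 over 6 timepoints, although its FPKM differed 4.49-fold over the same days. This flat course is that against the mean of the 4 genes, which differed unequally in Ph1: Epcam was 85.5 to 138 FPKM and Krt8 151 to 883. The added 1 FPKM also lessens changes at such low levels of Muc5ac. Muc5ac lay 5.92 below the mean at W1, 2.02 below at W2 and 0.46 to 1.12 above in Ph3. Relative to the epithelial genes, Muc5ac differed from Ph2 to Ph3 by 5.96 (exact permutation p = 0.0119) and from Ph1 to Ph2 by 0.04 (p = 1), or by -0.59 without W2. Muc5b differed by 4.67 and -6.07 (exact permutation p = 0.00433 and 0.0119) and Muc6 by 1.99 and 2.55 (exact permutation p = 0.00216 and 0.0119).

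Muc1 and Foxq1 were also higher relative to the epithelial genes in Ph2 than in Ph1, by 1.70 (exact permutation p = 0.00216) and 0.72 (exact permutation p = 0.00649). Spdef differed by 0.30 (exact permutation p = 0.0238), from -3.45 ± 0.195 to -3.15 ± 0.184 (SD, n = 6), and by 0.24 with the chromosome entry alone. This difference passed 0.05 after adjustment over the 16 tests, but not with the chromosome entry alone or without any timepoint other than E16.5, E17.5 and E18.5. Muc4, whose level did not pass limma's test between the phases, was lower relative to the epithelial genes at all Ph2 than at all Ph1 timepoints, by -1.09 (exact permutation p = 0.00216). Muc13 differed by 1.24 and -1.82 (exact permutation p = 0.113 and 0.107), and its first difference passed 0.05 after adjustment over the 16 tests with Epcam alone (2.001), with a pseudocount of 0.1 (2.71) and without W2 (1.69). From Ph2 to Ph3, Muc1 differed by 0.21 and Foxq1 by -0.40 (exact permutation p = 0.0357 for each), and these small differences depended on the epithelial genes chosen: with Epcam alone, Foxq1 differed by 0.35, Spdef by 0.67 and Muc4 by 0.69. The sizes of the differences from Ph1 to Ph2 depended on that choice too, and with Epcam alone they were -0.33 for Muc4, 0.80 for Muc5ac, 1.07 for Spdef and 1.48 for Foxq1, in the same direction. These were 16 tests. Epcam was 75.5 to 104 FPKM in Ph3 and 105 to 152 in Ph2, whereas Krt8 was 1478 to 2034 in Ph3 and 734 to 1445 in Ph2.

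**Figure D5:**
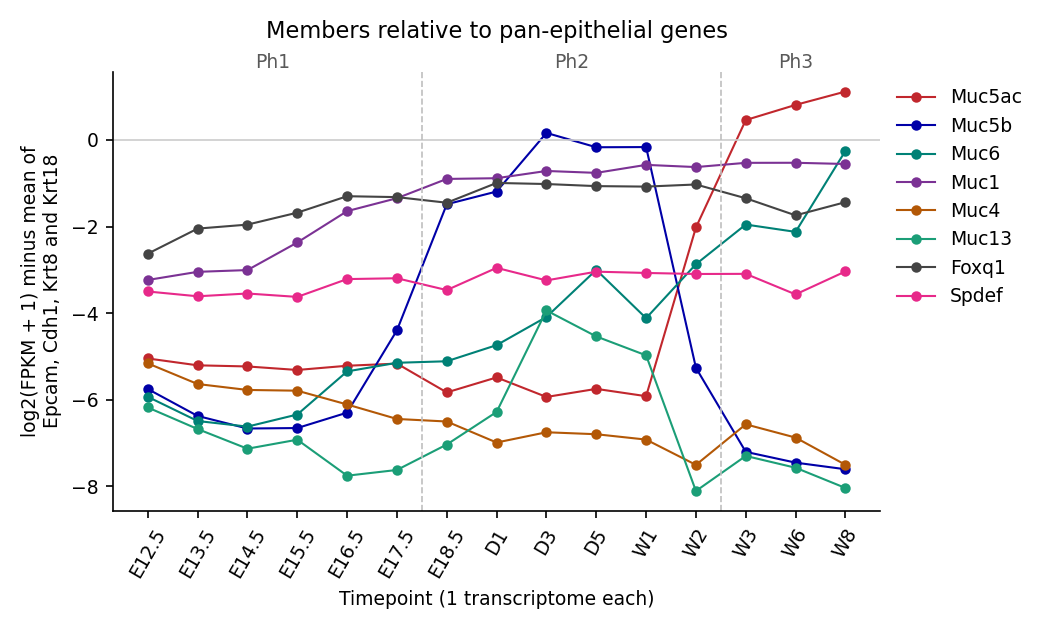
Difference between log2(FPKM + 1) of each gene and the mean log2(FPKM + 1) of Epcam, Cdh1, Krt8 and Krt18 at the 15 timepoints, 1 transcriptome each, where 0 means the level of that mean. Muc5ac is flat at -5.31 to -5.05 in Ph1 and reaches 1.12 at W8, Spdef stays between -3.63 and -2.95, and Muc5b is near 0 from D3 to W1.

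Over the 15 timepoints, Pearson's r of log2(FPKM + 1) was 0.98 between Foxq1 and Spdef, 0.97 between Muc1 and Spdef and 0.95 between Muc1 and Foxq1. It was 0.86 between Muc5b and Muc13, 0.84 between Muc5ac and Muc6, 0.43 between Muc5ac and Foxq1 and -0.35 between Muc5ac and Muc5b. The points share the libraries and the order of time, and the values are descriptions. Among the genes that were no members, the 3 with the highest r were Ces1f (r = 0.98), Rnf149 and Slc25a3 for Muc5ac, LOC102635049 (r = 0.98), Bpifb5 and Ltbp2 for Muc5b, and Capn8 (r = 0.99), Ppargc1b and Clic6 for Muc6. They were Vsig2 (r = 0.997), Tmem30b and Bace2 for Muc1, Ucp3 (r = 0.95), Daf2 and Serpinb6b for Muc13, and Cnih4 (r = 0.86), Calm2 and 1110008F13Rik for Muc4, the lowest value of the 8. For Foxq1 they were Galnt12 (r = 0.99), which starts O-linked sugar chains, Gas6 and Itm2b, and for Spdef they included Lynx1 (r = 0.98) and Them6. Galnt12 was 5.16 FPKM at E12.5 and 49.9 at W2.

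The enzymes that build the sugar chains of mucins were followed with a list of 29 genes, of which 26 were tested. From Ph1 to Ph2, 13 rose and 4 fell, and from Ph2 to Ph3, 4 rose and 6 fell. Of all genes tested, 13.2% were called higher and 35.1% lower at the first step, and 3.41% and 37.4% at the second. A4gnt, which adds the terminal N-acetylglucosamine typical of Muc6, was 0.0190 FPKM at E12.5, 6.42 at E18.5, 18.4 at W1, 55.4 at W2 and 66.2 at W8, and rose from Ph1 to Ph2 by a log2 fold change of 3.14 (SE 0.47, adjusted p = 0.000133 with limma). Fut2, a fucosyltransferase of surface mucins, rose by 3.12 (SE 0.53) and was 48.9 FPKM at E18.5 and 55.8 at W8. Gcnt3, which branches the chains, rose by 2.57 (SE 0.41). Fut2 thus lay between 29.7 and 48.9 FPKM from E18.5 to W1, and A4gnt was higher at W2 than at any timepoint before.

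In the step from Ph2 to Ph3, B4galnt3, an N-acetylgalactosamine transferase, rose by 1.52 (SE 0.28), and Gal3st1, better known as a sulfotransferase of glycolipids, rose by 1.45 (SE 0.33). St3gal4, a sialyltransferase, fell by 1.14 (SE 0.22). The median log2 fold change of the 26 genes was 0.73 and 0.22, against -0.22 and -0.43 for all genes.

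Of 22 genes of mucin folding, packing and secretion, all tested, 10 rose and 3 fell from Ph1 to Ph2, where 13.2% of all genes were called higher and 35.1% lower. The largest changes were those of the trefoil peptides Tff1 (log2 fold change 5.03, SE 0.67), secreted with Muc5ac by surface cells, and Tff2 (4.75, SE 0.74), secreted with Muc6 by neck cells, followed by Bcas1 (2.87, SE 0.44). Tff1 was 153 FPKM at E12.5, 4586 at E18.5, 22787 at W1, 39313 at W2 and 112832 at W6, which shows that Tff1 was abundant from E18.5 to W1, when Muc5ac stayed below 5 FPKM. At the next step, 3 genes rose and 1 fell, where 3.41% and 37.4% of all genes did. Zg16, a lectin-like protein of mucus, rose by 5.26 (SE 0.33) and was 28.3, 83.1 and 53.5 FPKM at W3, W6 and W8 and at most 2.02 before. Fcgbp, a protein of mucus gels, rose by 3.04 (SE 0.64), with 10.4 FPKM at E17.5, 0.418 at W2 and 35.8 at W3, and Marcks, which takes part in the release of mucin granules, fell by 1.42 (SE 0.21). The medians were 0.53 and 0.16.

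Of 18 other transcription factors of secretory and epithelial cells, 16 were tested. From Ph1 to Ph2, 8 rose, among them Klf4 (1.50, SE 0.36), Foxa3 (1.30, SE 0.31) and Creb3l4 (1.27, SE 0.27) on the log2 scale, and 1 fell, Sox2, where 13.2% of all genes were called higher and 35.1% lower. At the next step, where 3.41% and 37.4% of all genes were called higher and lower, Gata4, a factor of the glandular stomach, rose by 0.78 (SE 0.18), and Sox2, a foregut factor, and Klf5 fell by 1.73 (SE 0.26) and 1.31 (SE 0.31). Sox2 was 52.5 FPKM at E17.5 and 5.34 at W8. The medians of the 16 genes were 0.74 and 0.00.

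Of 10 other mucin symbols, 6 were in the data and 1, Muc15, reached 1 FPKM. This membrane-bound mucin was 0 at E12.5, 3.78 at E18.5 and 0.0321 at W8 and was not called at either step. Muc2, Muc3, Muc16, Muc19 and Muc20 stayed below 1 FPKM, and Muc3a, Muc12, Muc17 and Muc21 were not analysed here.

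RNA of surface mucous cell markers was measured from E12.5 on, where Tff1 was 153 FPKM, Gkn1 34.8 and Gkn2 40.9. Gkn1 and Gkn2 were little higher at E15.5, with 38.7 and 48.1 FPKM, whereas Tff1 was 365. Whether these early levels come from surface mucous cells was not tested. All 3 surface markers, Gkn1, Gkn2 and Tff1, rose from Ph1 to Ph2, and Gkn1 and Gkn2 rose again in Ph3, by 3.54 (SE 0.84) and 3.48 (SE 0.82) on the log2 scale. Gkn2, a gastrokine of surface mucous cells, was 119 FPKM at E17.5, 6170 at W1 and 25356 at W3. The neck markers Tff2 and A4gnt rose from Ph1 to Ph2. Gkn2 was at least 3545 FPKM from D3 to W1, at the timepoints at which Muc5ac was 3.39 to 4.40 FPKM.

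Markers of other tissues moved with the phases as follows. Of 4 pan-epithelial genes, Krt8 and Krt18 rose from Ph1 to Ph2. The summed FPKM of the 4 forestomach markers ranged from 19.8 to 6198 in Ph1, from 883 to 5630 in Ph2 and from 7.65 to 860 in Ph3, where Trp63 fell. That of 4 liver markers was 30.3 to 154, 248 to 1150 and 1463 to 2396, led at W6 by Apoa1 with 2270 and at D1 by Alb with 461, and Alb was 0.869 at W6. Apoa1 rose at both steps and Ttr at the first. Of 5 intestinal markers, 4 were tested. Fabp2 rose at both steps, Vil1 rose and Cdx2 fell at the first, and the sum was at most 65.0. Of 4 pancreatic markers, Cela1 rose at both steps, to 96.0 FPKM at W6. Of 3 airway markers, 2 were tested: Foxj1 fell at the first step, and Sftpc, which marks the lung, was at most 0.0985. Their part in the results for the mucins was not tested. The relative sequencing depth of the transcriptomes lay between 0.702 at E16.5 and 1.17 at W6.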

How the data were processed

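Total RNA of whole stomachs was sequenced on the Illumina platform. The authors deposited FPKM values with confidence bounds for 46966 gene entries of each transcriptome. Their paper names FastQC, HISAT2, StringTie and GENCODE, the submitters' processing notes name Bowtie 0.12.2, FastQC and GRCm38.p2, and the layout is that of Cufflinks with RefSeq-style entries. No read counts were used, the depth is known only relative to E12.5 from single-fragment steps of FPKM, and samples were grouped by the age in their labels.

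Entries of a symbol were summed (1565 symbols had more than 1), and genes whose highest FPKM was 1 or more were tested on log2(FPKM + 1), which understates changes of low genes. Phases were compared with limma 3.58.1 in R 4.3.3 (all 15 timepoints, Benjamini-Hochberg adjustment over 16902 genes, threshold 0.01) and with exact two-sided permutation tests in Python 3.11.15 with NumPy 2.4.6 and pandas 2.3.3. These tests had 924 splits for Ph1 against Ph2 (smallest p 0.00216) and 84 for Ph2 against Ph3 (smallest p 0.0119), and 16 were made on the members. On simulated data, limma called 182 of 200 shifted genes from Ph1 to Ph2 and 2 of the unchanged genes among 16902. The simulated timepoints had independent noise around a flat mean and no course with age within a phase. They therefore do not give the error rate for the real timepoints, and the step from Ph2 to Ph3 was not simulated. Figures were drawn with Matplotlib 3.10.9.

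The members and gene lists were chosen with earlier results of these data known. Apart from the members, up to 3 genes per list and step with the largest absolute log2 fold change among those called, and the 3 genes with the highest r for each member, were named, apart from 1 gene that is not reported here; single genes added for context (Muc2, Krt5, Krt14, Krt13, Cdx1, Lct, Cpa1, Cel, Prss2, Sftpc, Alb and the epithelial genes) were chosen after their values were seen. Other pseudocounts, filters, scalings, entries, phase divisions, limma settings and epithelial genes were tried, and each timepoint was left out in turn.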

Additional observations from a re-analysis of the deposited data

Results flagged for a closer look

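Of 28 groups of 6 timepoints in which a gene's level or share was examined for a value set apart from the others, 6 held one. Levels and shares of the same genes are both among the groups, and the timepoints follow age. The number to be expected by chance is therefore not known. In 5 of the 6 groups the value is that of W2 in Ph2. Muc5ac at W2 stood at 6.57 on the log2(FPKM + 1) scale, with a gap of 0.92 of the range of Ph2, and Muc5b at W2 stood at 3.33, with a gap of 0.66 of the range. The shares of the gel-forming mucin FPKM at W2 stood apart for all 3 genes, with 60.7% for Muc5ac, 5.84% for Muc5b and 33.4% for Muc6. The remaining value is the Muc5b share of 47.4% at E17.5, the last timepoint of Ph1. W2 and E17.5 are each the last timepoint of their phase, and each has 1 transcriptome.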

How the results depend on the processing

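No paired analysis was possible because the labels carry no replicate numbers that the phases share. The steps called for Muc5ac, Muc5b and Muc1 kept their direction and their side of the threshold under all alternatives and without any timepoint. From Ph2 to Ph3, 1 member in place of 2 was called higher with a pseudocount of 0.1 and with E18.5 in Ph1, and without the low-value filter, with which 28775 genes were tested, 4 in place of 7 members passed the F test. With median-ratio scaling, 4 in place of 2 members were higher in all Ph2 than in all Ph1 timepoints. In the same setting, 4 in place of 2 were higher in all Ph3 than in all Ph2 timepoints. The count of members lower in all Ph3 than in all Ph2 timepoints was 1 in every setting. The shares of all genes without overlap or passing the F test were counted in the main setting only. Changes in these 2 counts are therefore not read as results about the members. The Foxq1 difference from Ph2 to Ph3 became 0.39 with that scaling, and without W3 Muc4 became -0.14 and Spdef -0.014, in ranges over the left-out timepoints of -0.14 to 0.44 and -0.014 to 0.27. In the mucin-related lists, the 8 calls higher in Ph3 became 5 with a pseudocount of 0.1, 5 without the filter, 4 with E18.5 in Ph1 and 21 with median-ratio scaling. Of all genes, 2.86%, 1.89%, 2.57% and 14.9% were called higher in these settings, against 3.41% in the main setting. The 9 calls lower in Ph3 became 4 with median-ratio scaling and 2 with quantile normalization, and the 8 lower in Ph2 became 2 with median-ratio scaling. The shares of all genes called lower were 10.4%, 7.65% and 18.4%, against 37.4% in Ph3 and 35.1% in Ph2 in the main setting.

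With E18.5 in Ph1, the shares differed by -36.3 and 67.9 points for Muc5ac, 42.8 and -73.7 for Muc5b and -5.73 for Muc4, and did not pass 0.05 after adjustment over their 6 tests. Of the differences relative to epithelial genes from Ph2 to Ph3, with adjustment over 16 tests, 2 were higher and 1 lower. With Epcam alone, 6 were higher, and Muc4, Foxq1 and Spdef changed sign to 0.69, 0.35 and 0.67. Epcam itself was 75.5 to 104 FPKM in Ph3 and 105 to 152 in Ph2. With a pseudocount of 0.1, with E17.5 in Ph2 and with E18.5 in Ph1, 2 were lower. The share of all genes that differ relative to the epithelial genes was not counted. Such counts, here and with timepoints left out, are therefore not read as results about the members. Without W2, the Muc5ac difference from Ph1 to Ph2 became -0.59, the lowest of a range up to 0.20.

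With 1 timepoint left out at a time, 4 to 6 members were called higher in Ph2, 1 to 2 higher and 1 to 2 lower in Ph3, and 4 to 7 passed the F test (4 without E13.5 or E14.5). Of all genes, 10.3% to 15.3% were then called higher in Ph2. In Ph3, 1.81% to 4.38% were called higher and 16.8% to 40.6% lower. Members without overlap between Ph1 and Ph2 numbered 2 to 4, with 4 without W2. With timepoints left out, the shares of all genes without overlap or passing the F test were not counted. These 2 ranges are therefore not read as results about the members. List calls in Ph3 were 2 to 12 higher (2 without W6) and 6 to 10 lower. Shares moved between 66.1 and 79.3 (Muc5ac, Ph3), -90.5 and -72.8 (Muc5b, Ph3), -14.0 and -5.91 (Muc6, Ph2), 2.05 and 11.2 (Muc6, Ph3), 1.77 and 3.57 (Muc13, Ph2) and -7.53 and -5.12 (Muc4, Ph2). Relative to epithelial genes, 0 to 2 members were higher and 0 to 2 lower in Ph3 and 1 to 2 lower in Ph2, and the counts of 0 came with W3, W6 or W8 left out, which leaves 6 against 2 timepoints. Where no value is given for it, the cause was not tested. With 1 transcriptome per timepoint, no change between neighbouring timepoints has a replicate check, and Muc13 before birth rests on few fragments.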
